A study of Mus musculus with 6 samples.

Results

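The genes described here encode 10 pattern-recognition receptors of macrophages, 5 C-type lectin receptors (Clec4d, Clec4e, Clec4n, Clec7a and Clec5a) and 5 scavenger receptors (Msr1, Marco, Scarb1, Stab1 and Olr1). They were chosen by name, and all 10 were found among the 24062 genes of the count tables. Of these, 9 had reads, and Marco had none in any library. RNA was sequenced from the mouse macrophage line RAW264.7, although the labels of the samples give bone marrow as their source. M0 cells were not polarized, M1 cells were given LPS (100 ng/mL) with IFN-γ (20 ng/mL) over 24 h, and M2 cells IL-4 (20 ng/mL) over 24 h. RM0, RM1 and RM2 cells were irradiated in the same 3 states with 10 Gy of gamma rays and kept for a further 24 h. Whether the non-irradiated cells were also kept for that time is not stated in the sources used here. Each condition was 1 library of RNA pooled from 5 wells of 1 cell line, so no difference between a pair of libraries has a replicate check.

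C-type lectin receptors bind sugars and lipids on microbes and dead cells. Mincle (Clec4e), MCL (Clec4d) and dectin-2 (Clec4n) signal through the Fc receptor γ chain (Fcer1g), and Clec5a signals through the adaptors DAP12 (Tyrobp) and DAP10 (Hcst). Dectin-1 (Clec7a), the receptor for fungal β-glucan, carries its own signaling motif, and these routes lead to the kinase Syk and, for several receptors, to the adaptor Card9. Scavenger receptors take up modified lipoproteins, dead cells and bacteria. Their activity is a long-known property of macrophages, and LPS, IFN-γ and IL-4 are standard agents for changing the receptor set of these cells.

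Counts per library ranged from 17894937 to 18870516. Of 12 macrophage markers, 11 had at least 10 counts in every library, and Mertk had at most 8. The summed macrophage markers ranged from 336801 counts in M1 to 742687 in RM0, mostly through Lyz2 at 199329 and 580239. Defining markers of mast cells were at 0, and those of T cells and B cells summed to at most 1 and 4 counts. The summed endothelial and dendritic cell markers reached at most 57 and 58 counts, and those of liver macrophages and sinusoidal cells at most 1. Markers of fibroblasts and neutrophils moved with M1 polarization, each through 1 gene. The fibroblast sum was 128 and 169 counts in M0 and RM0, 645 and 764 in M1 and RM1, and 136 and 199 in M2 and RM2, nearly all Dcn, with Col1a2 and Col3a1 at 0. The neutrophil sum was 2850 to 6670 in the M0, M2, RM0 and RM2 libraries, 32468 in M1 and 51248 in RM1, nearly all S100a8, with Elane at most 1 and Mpo at most 3. Their part in the M1 differences below was not tested. Nos2, the M1 marker for inducible nitric oxide synthase, had 14393 counts in M0, 169925 in M1, 22038 in RM0 and 129631 in RM1. Arg1, the arginase used as an M2 marker, had 0 counts in M0, 31 in M2, 2 in RM0 and 89 in RM2. Mrc1, a lectin often used as an M2 marker, had 10 counts in M0 but only 6 in M2 and 50 in M1.

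Per kilobase of the longest transcript, Clec4d was the most abundant of the receptor mRNAs in all 6 libraries. In M0 its level was 350 CPM per kb, where CPM are counts scaled by TMM to a common library size. Msr1 followed at 112, Clec4e at 55.9, Clec5a at 51.0, Scarb1 at 32.4, Clec7a at 9.83, Clec4n at 1.89, Stab1 at 1.05 and Olr1 at 0.212 CPM per kb. In M1 the order changed, with Clec4e and Msr1 both at 190, Scarb1 at 45.1, Clec5a at 16.2, and Olr1 at 2.93 above Stab1 at 0.558 CPM per kb. In RM2, Clec7a at 33.8 stood above Scarb1 at 26.1 CPM per kb. With 1 library per condition, neighbors in these orders could not be tested against a spread between replicates.

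**Figure D1:**
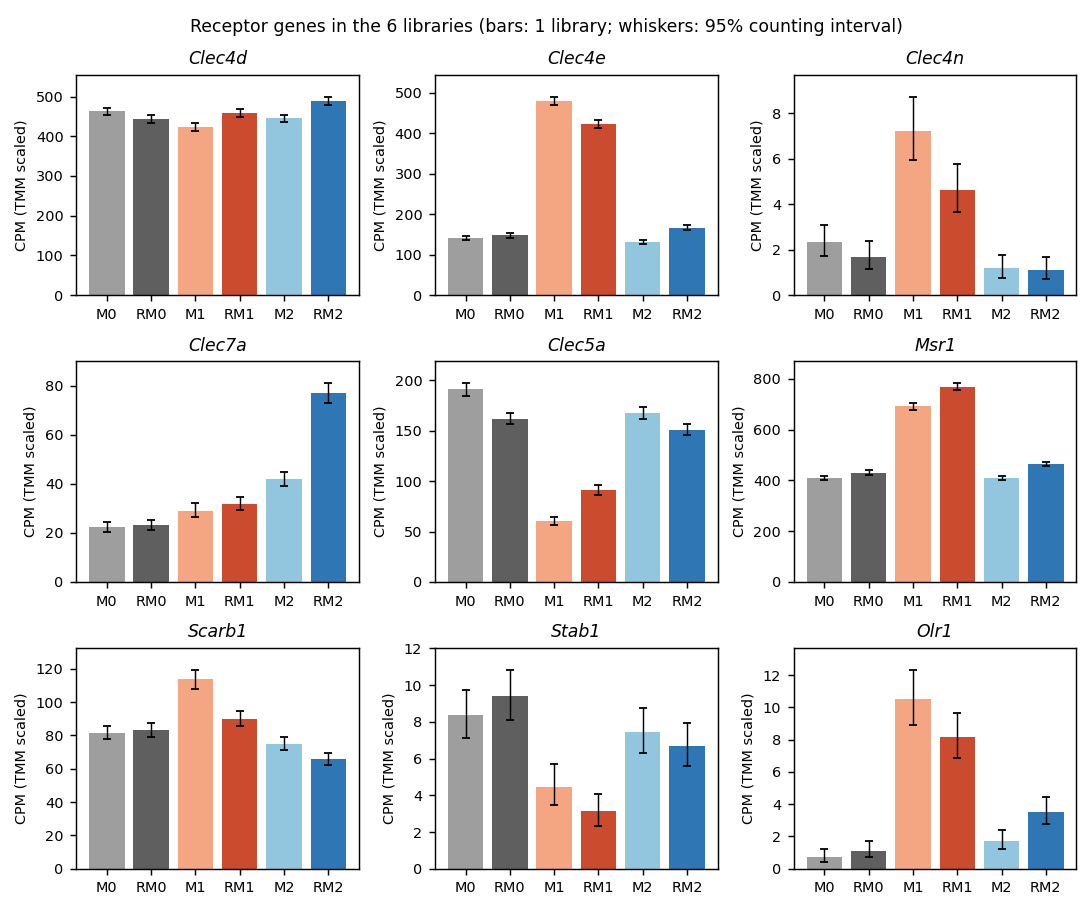
TMM-scaled CPM of the 9 receptor genes with reads (y axis, linear from 0, its own range for each gene) in each of the 6 libraries (x axis). Bars are single libraries and whiskers are exact 95% Poisson intervals, which cover counting error only. Clec4e stands at 479 CPM in M1 and 422 in RM1 against 132 to 166 in the other libraries, and Clec7a is highest in RM2 at 76.9.

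With LPS and IFN-γ, Clec4e, Clec4n, Olr1 and Msr1 rose and Clec5a and Stab1 fell. Clec4e, Clec4n and Olr1 were at least 2-fold higher in both M1 against M0 and RM1 against RM0, as were 4.71% of all genes measured in both pairs. In M1 against M0, 3 of the 9 measured receptors were at least 2-fold higher and 1 was lower, beside 9.37% and 13.3% of all genes measured. In RM1 against RM0, 3 were higher and 1 lower, beside 6.16% and 7.87%. The median log2 fold change of the 9 was 0.48 and 0.47 in these pairs, and that of all genes measured -0.03 and -0.01. For an effect shared by both pairs, the quasi-likelihood test of edgeR was run across 11574 genes, in which the irradiated and non-irradiated libraries stand in for replicates. With Benjamini-Hochberg adjustment at 0.05, 4 receptors (Clec4e, Clec4n, Olr1 and Msr1) rose and 2 (Clec5a and Stab1) fell. The background is high, since 23.3% of all genes rose and 24.3% fell in this test. These p-values measure only the spread between these libraries. In bulk RNA, a change in the share of cells that express a gene and a change in RNA per cell cannot be told apart.

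Clec4d and Clec4e are neighbors on chromosome 6 that encode partner receptors. Clec4d (NM_001163161) lies at chr6:123262107-123275268 on the plus strand of mm10. Clec4e (NM_019948) lies at chr6:123281789-123289871 on the minus strand, so their 3′ ends face each other across 6.52 kb. The 250 bases before each start, from the RefSeq promoter table of GRCm38.p6, are shown because Clec4e rose with M1 polarization and its neighbor Clec4d did not pass the test. They are given 5′ to 3′ on the strand of the gene, for Clec4d chr6:123261857-123262106 (plus) and for Clec4e chr6:123289872-123290121 (minus). Neither holds the exact C/EBP, PU.1, kappa-B, AP-1, interferon or STAT6-type strings that are spelled out further on. This says only that those strings, with their fixed spacing, are not in this window. The Clec4e window does hold ttgtgcaa, which on the other strand has the C/EBP letters in a closer spacing that was not searched. A lack of C/EBP sites before Clec4e therefore cannot be read from the search.
Clec4d: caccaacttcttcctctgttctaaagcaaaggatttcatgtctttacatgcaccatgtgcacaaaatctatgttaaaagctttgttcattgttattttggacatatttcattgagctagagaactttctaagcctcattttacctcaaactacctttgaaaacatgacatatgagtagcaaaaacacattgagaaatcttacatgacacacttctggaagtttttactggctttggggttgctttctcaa
Clec4e: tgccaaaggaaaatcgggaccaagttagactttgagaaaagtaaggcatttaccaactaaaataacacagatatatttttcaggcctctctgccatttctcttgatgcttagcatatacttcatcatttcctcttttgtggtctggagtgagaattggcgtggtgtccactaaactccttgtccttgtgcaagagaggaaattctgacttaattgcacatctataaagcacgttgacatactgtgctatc

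Clec4e, the receptor for mycobacterial cord factor, had 2790 and 2882 counts in M0 and RM0, 7085 and 7036 in M1 and RM1, and 2675 and 3297 in M2 and RM2. Both M1 libraries were above every other library. From M0 to M1 the log2 fold change was 1.77 (95% interval 1.70 to 1.83), and from RM0 to RM1 it was 1.52 (1.46 to 1.58). The shared M1 effect was 1.65 (edgeR adjusted p = 1.32e-05). Clec4d had 9180 and 8695 counts in M0 and RM0, 6259 and 7654 in M1 and RM1, and 9018 and 9717 in M2 and RM2. On the CPM scale these counts spanned only 423 to 490. For Clec4d, on the log2 scale M1 differed from M0 by -0.13 (-0.18 to -0.08) and RM1 from RM0 by 0.05 (0.00 to 0.09), and the shared M1 effect of -0.04 did not pass the edgeR test (adjusted p = 0.817). Scaling by library totals alone put Clec4d at -0.57 and -0.20 in these pairs and its shared M1 effect at -0.39 (edgeR adjusted p = 0.0258).

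The ratio of the 2 receptors within a library does not depend on scaling. The M0 library held 0.304 Clec4e counts per Clec4d count (95% interval 0.291 to 0.317) and the M1 library 1.13 (1.09 to 1.17). The ratio was 0.331 in RM0 (0.318 to 0.346) and 0.919 in RM1 (0.890 to 0.950), and it stayed at 0.297 in M2 and 0.339 in RM2. It was thus 3.72-fold higher in M1 than in M0 and 2.77-fold higher in RM1 than in RM0. Per kilobase, Clec4e remained below Clec4d even in M1, at a ratio of 0.595.

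**Figure D2:**
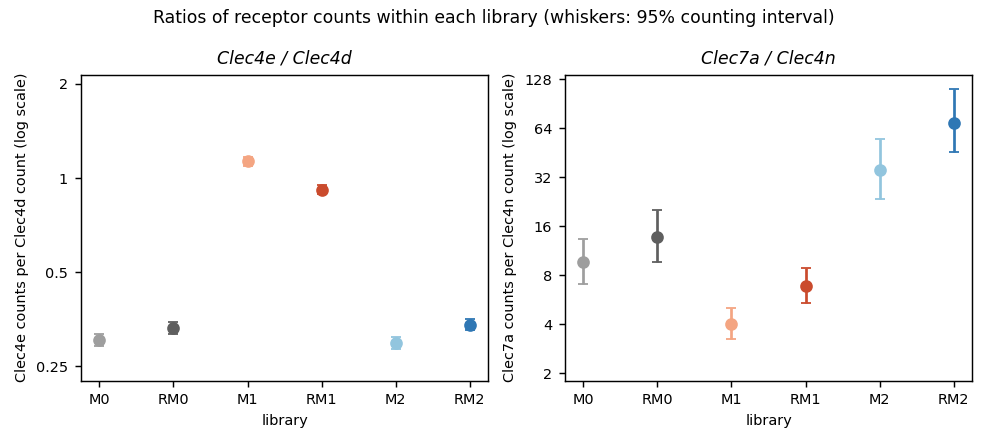
Ratio of counts of Clec4e to Clec4d (left) and Clec7a to Clec4n (right) within each of the 6 libraries, on log y axes, with the libraries on the x axis. Points are single libraries and whiskers are exact 95% intervals for counting error. Clec4e per Clec4d is 1.13 in M1 and 0.919 in RM1 against 0.297 to 0.339 elsewhere, and Clec7a per Clec4n is lowest in M1 (4.02) and highest in RM2 (69.4).

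Clec4n (NM_001190321, chr6:123229843-123247024, plus strand) lies 15.1 kb before Clec4d in the same cluster and encodes dectin-2, a receptor for fungal mannans. It had 46 and 33 counts in M0 and RM0, 107 and 77 in M1 and RM1, and 24 and 22 in M2 and RM2. These low counts were highest in the M1 libraries and lowest in the M2 libraries. M1 minus M0 was 1.60 (1.13 to 2.17) and RM1 minus RM0 1.40 (0.85 to 2.09) on the log2 scale, with a shared M1 effect of 1.55 (edgeR adjusted p = 0.000893). In M2 against M0 it was -0.91 (-1.75 to -0.23) and in RM2 against RM0 -0.56 (-1.45 to 0.22), and the shared M2 effect of -0.79 did not pass the edgeR test (adjusted p = 0.467).

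Clec5a moved the other way. It encodes a myeloid receptor known for binding dengue virus, and lies at chr6:40574898-40585805 on the minus strand (NM_001038604), apart from the other lectin genes. It had 3791 and 3183 counts in M0 and RM0, 897 and 1517 in M1 and RM1, and 3406 and 3003 in M2 and RM2. Both M1 libraries were below the other 4. From M0 to M1 the log2 fold change was -1.65 (-1.76 to -1.55), and from RM0 to RM1 it was -0.84 (-0.93 to -0.75), where it was short of 2-fold. The shared M1 effect was -1.23 (edgeR adjusted p = 0.000342). Against Clec4e within the same library, Clec5a fell from 1.36 counts per Clec4e count in M0 to 0.127 in M1, and the ratio was 1.1 in RM0 and 0.216 in RM1. Scaling by library totals alone moved the change in RM1 against RM0 to -1.08, past 2-fold.

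Among the scavenger receptors, Olr1 showed the largest fold difference with M1 polarization. Olr1 encodes LOX-1, a receptor for oxidized LDL with a C-type lectin fold, and lies at chr6:129485247-129507165 on the minus strand (NM_138648). It had 15 and 22 counts in M0 and RM0, 155 and 136 in M1 and RM1, and 35 and 70 in M2 and RM2. The M1 libraries were highest and the M2 libraries lay between them and the unpolarized libraries. On the log2 scale M1 differed from M0 by 3.62 (3.03 to 4.66) and RM1 from RM0 by 2.75 (2.2 to 3.58). The shared M1 effect was 3.32 (edgeR adjusted p = 5.29e-05).

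Msr1 (NM_001113326, chr8:39581700-39642678, minus strand), the class A scavenger receptor that binds modified LDL and LPS, had 8107 and 8423 counts in M0 and RM0, 10239 and 12807 in M1 and RM1, and 8317 and 9216 in M2 and RM2. On the CPM scale the M1 libraries stood at 692 and 768 and the other 4 at 409 to 465. M1 minus M0 was 0.76 (0.72 to 0.80) and RM1 minus RM0 0.84 on the log2 scale, both under 2-fold, and the shared M1 effect was 0.80 (edgeR adjusted p = 0.000619). Stab1 (NM_138672, chr14:31139017-31168641, minus strand), which encodes the clearance receptor stabilin-1, had 166 and 184 counts in M0 and RM0, 66 and 52 in M1 and RM1, and 151 and 133 in M2 and RM2. Both M1 libraries were the lowest. For Stab1, from M0 to M1 the log2 fold change was -0.89 (-1.34 to -0.49), and from RM0 to RM1 it was -1.56 (-2.06 to -1.14). Scaling by library totals alone moved the first of these to -1.32, past 2-fold. Its shared M1 effect was -1.24 (edgeR adjusted p = 0.00136).

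Scarb1 and Clec7a did not pass the test for M1 polarization. Scarb1 (NM_001205083, chr5:125277087-125341094, minus strand), the HDL receptor SR-BI, had 1619 and 1627 counts in M0 and RM0, 1681 and 1500 in M1 and RM1, and 1523 and 1305 in M2 and RM2. This was a narrow range in which no pair of libraries differed by 2-fold. On the log2 scale M1 differed from M0 by 0.48 and RM1 from RM0 by 0.12, and the shared M1 effect was 0.30 (edgeR adjusted p = 0.0789). The sign of the RM1 difference turned to -0.13 when libraries were scaled by their totals. Marco (NM_010766, chr1:120474538-120505084, minus strand), a class A scavenger receptor for bacteria, had 0 counts in each library, which allows up to 3 counts in each.

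**Figure D3:**
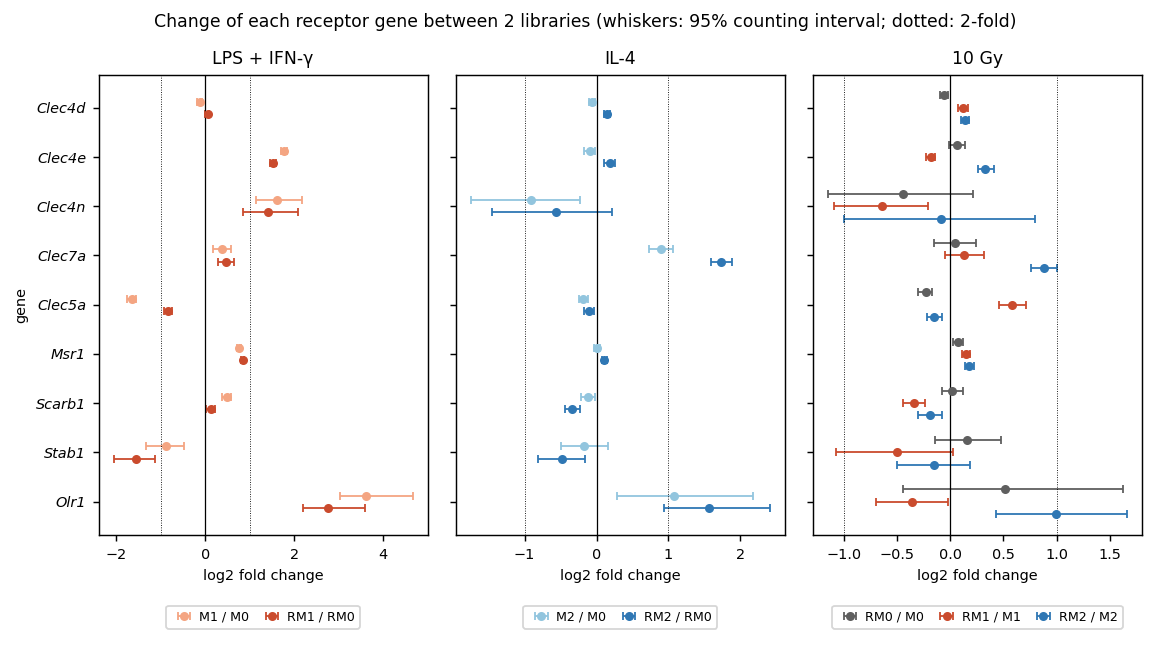
Log2 fold change (x axis) of the 9 receptor genes (y axis) for LPS with IFN-γ, IL-4 and 10 Gy, each point comparing a pair of libraries named in the key. Whiskers are exact 95% intervals for counting error and dotted lines mark 2-fold. Olr1 lies at 3.62 and 2.75 with LPS and IFN-γ, Clec7a at 0.90 and 1.73 with IL-4, and all points for 10 Gy lie within 2-fold.

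With IL-4, Clec7a and Olr1 were the receptors that stood higher by 2-fold. In M2 against M0, 1 of the 9 measured receptors differed at least 2-fold (Olr1, higher), beside 1.44% of all genes measured. In RM2 against RM0, 2 differed (Clec7a and Olr1, both higher), beside 2.61%. Olr1 was at least 2-fold higher in both pairs, as were 0.31% of genes. The median log2 fold change of the 9 receptors was -0.09 and 0.11 in these pairs, and 0.00 over all genes measured in each. The M2 comparisons use the same M0 and RM0 libraries as the M1 comparisons, so the values for both treatments are not independent. In the test of a shared M2 effect, 1 receptor, Clec7a, rose, while 0.19% of all genes changed in either direction.

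Clec7a (NM_020008) lies at chr6:129461591-129472777 on the minus strand, 12.5 kb from Olr1. The GENCODE M21 annotation lists it as a polymorphic pseudogene. It had 444 and 452 counts in M0 and RM0, 430 and 532 in M1 and RM1, and 847 and 1526 in M2 and RM2. Both M2 libraries were above the other 4, and RM2 was the highest. M2 stood 0.90 above M0 on the log2 scale (0.73 to 1.07) and RM2 stood 1.73 above RM0 (1.59 to 1.89). The shared M2 effect was 1.34 (edgeR adjusted p = 0.0208), and the call was lost with scaling by library totals (adjusted p = 0.0811) and in a model without irradiation (adjusted p = 0.477). With LPS and IFN-γ the log2 fold change of Clec7a was 0.38 in M1 against M0 and 0.47 in RM1 against RM0, and the shared M1 effect of 0.42 did not pass (edgeR adjusted p = 0.091). The M1 difference turned to -0.06 with scaling by library totals.

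Clec7a and Clec4n encode the dectins for fungal β-glucan and mannan, and their ratio within a library differed between the states. There were 9.65 Clec7a counts per Clec4n count in M0 (7.11 to 13.4), 4.02 in M1 (3.24 to 5.01) and 35.3 in M2 (23.6 to 55.4). After irradiation it stood at 13.7 (RM0), 6.91 (RM1) and 69.4 (RM2, 45.6 to 111). The M2 libraries were therefore above and the M1 libraries below the unpolarized library of the same irradiation, beyond counting error.

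The Olr1 values with IL-4 rested on few counts. Its log2 fold change was 1.08 in M2 against M0 (0.28 to 2.17) and 1.56 in RM2 against RM0 (0.94 to 2.41). The shared M2 effect of 1.46 did not pass the edgeR test (adjusted p = 0.304), and it passed without the M1 and RM1 libraries (adjusted p = 0.000289). Without those libraries 1330 of all 11574 genes passed, against 22 with all libraries. Set against its neighbor Clec7a, Olr1 had 0.0338 counts per Clec7a count in M0, 0.36 in M1 and 0.0413 in M2.

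The 250 bases before the starts of Clec7a, Olr1 and Clec5a are shown because Clec7a rose with IL-4, and Olr1 rose and Clec5a fell with LPS and IFN-γ. Capitals mark matches, on either strand, to a STAT6-type pair of TTC and GAA with 4 bases between them (Clec7a and Clec5a) and to the AP-1 motif TGANTCA (Olr1). The sequences run 5′ to 3′ on the gene's strand, all minus, at chr6:129472780-129473029 for Clec7a, chr6:129507166-129507415 for Olr1 and chr6:40585806-40586055 for Clec5a, from the same RefSeq table.
Clec7a: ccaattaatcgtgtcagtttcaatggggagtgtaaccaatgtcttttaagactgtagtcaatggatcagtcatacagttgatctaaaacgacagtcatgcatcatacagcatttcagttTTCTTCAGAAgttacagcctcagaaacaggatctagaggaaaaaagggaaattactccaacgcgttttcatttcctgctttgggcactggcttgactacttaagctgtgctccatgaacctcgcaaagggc
Olr1: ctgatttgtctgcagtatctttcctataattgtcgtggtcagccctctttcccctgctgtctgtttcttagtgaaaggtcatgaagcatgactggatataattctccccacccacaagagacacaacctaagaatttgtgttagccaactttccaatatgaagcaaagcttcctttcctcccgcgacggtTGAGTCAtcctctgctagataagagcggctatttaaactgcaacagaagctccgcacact
Clec5a: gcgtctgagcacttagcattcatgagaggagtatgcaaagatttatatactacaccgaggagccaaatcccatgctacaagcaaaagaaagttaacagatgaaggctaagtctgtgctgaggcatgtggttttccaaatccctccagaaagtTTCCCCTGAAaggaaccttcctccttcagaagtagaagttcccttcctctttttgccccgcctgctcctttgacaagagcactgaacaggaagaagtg

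The STAT6-type match of Clec7a lies at -131 to -122 and that of Clec5a at -98 to -89, counted from -1 at the last base before the start. The AP-1 match of Olr1 lies at -60 to -54. Among all 32851 promoters of the table, 5.85% held the STAT6-type pair and 6.75% the AP-1 motif, against 2 and 1 of the 7 receptor genes with an entry. Clec5a carries the same kind of match as Clec7a, and its log2 fold change with IL-4 was -0.19 and -0.10. None of the 7 held TTGCNNNAA (C/EBP), GAGGAAGT (PU.1), GGGNNTTCC or GGGNNNTCC (kappa-B) or GAAANNGAA (interferon response), which 8.29%, 2.44%, 4.98%, 15.2% and 7.13% of all promoters held. Each string fixes its spacing, and C/EBP or kappa-B letters spaced otherwise were not searched. These shares are therefore of the strings, and the absence of such sites cannot be read from them. The looser motifs TGANNNNGC (antioxidant response) and CANNTG (E-box) matched 2 and 4 of the 7, beside 35.2% and 66.2% of all. The matches are descriptions of letters and not of binding.

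No receptor differed by 2-fold between irradiated and non-irradiated libraries of the same state. The count was 0 of 9 in RM0 against M0, RM1 against M1 and RM2 against M2, beside 1.54%, 5.34% and 1.97% of all genes measured. The median log2 fold change of the 9 was 0.04, -0.18 and 0.14 in these pairs, and that of all genes measured was 0.00, -0.01 and 0.00. In the test of an effect shared by the 3 states, edgeR called 0 receptors beside 0.475% of all genes, and DESeq2 also called 0. The edgeR test put 1 receptor (Clec7a) at an unadjusted p under 0.05, beside 1707 of all 11574 genes. Since the non-irradiated cells may not have been kept for the further 24 h, irradiation and longer culture cannot be told apart in any of these pairs.

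The difference between irradiated and non-irradiated libraries was not of one size over the states for Clec7a, Clec5a and Clec4e. Clec7a had a log2 fold change of 0.04 in RM0 against M0 (-0.15 to 0.24), 0.13 in RM1 against M1 (-0.05 to 0.32) and 0.88 in RM2 against M2 (0.76 to 1.00). The shared irradiation effect of 0.37 did not pass the edgeR test (adjusted p = 0.302), and it passed at 0.52 without the M1 and RM1 libraries (adjusted p = 0.000304). Without those libraries 525 of all 11574 genes passed, against 55 with all libraries. Clec5a was at -0.23 in RM0 against M0 (-0.30 to -0.17), 0.58 in RM1 against M1 (0.46 to 0.71) and -0.15 in RM2 against M2 (-0.22 to -0.08). Clec5a was thus higher in the irradiated library in the M1 state alone. Clec4e was at 0.06, -0.18 and 0.33 (0.26 to 0.41) in the same order of states. These intervals cover counting error only, and the differences between states were not tested.

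Olr1 was at 0.51 in RM0 against M0 (-0.44 to 1.62), -0.36 in RM1 against M1 (-0.70 to -0.02) and 0.99 in RM2 against M2 (0.43 to 1.66). It was the 1 receptor to reach 2-fold in RM2 against M2 with a prior count of 0.25 in place of 2. Clec4d at -0.06, 0.12 and 0.14 and Msr1 at 0.07, 0.15 and 0.18 were close to no difference in all 3 states. Scarb1 was at 0.02, -0.34 and -0.19, and Stab1 at 0.16, -0.50 (-1.07 to 0.03) and -0.15. Clec4n was at -0.44, -0.64 (-1.09 to -0.21) and -0.09, lower in each irradiated library but past its counting error in RM1 only. Its shared irradiation effect of -0.46 did not pass the edgeR test (adjusted p = 0.382).

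Few adaptors and kinases downstream of the lectin receptors differed by 2-fold. Of 24 signaling genes, all with at least 10 counts, 1 was at least 2-fold higher (Fcer1g) and 1 lower (Nfatc2) in M1 against M0, beside 9.37% and 13.3% of all genes, and none was in the other 6 comparisons. For the shared M1 effect 5 rose and 6 fell in the edgeR test, shares near the 23.3% and 24.3% of all genes. For M2 polarization and for irradiation 0 passed with edgeR and 0 with DESeq2, with 5 at an unadjusted edgeR p under 0.05 in each. Over all 11574 genes, 1173 and 1707 were under that p for M2 polarization and irradiation. Fcer1g, the γ chain used by Clec4e, Clec4d and Clec4n, had 3566 and 3282 counts in M0 and RM0, 5528 and 4379 in M1 and RM1, and 3033 and 2922 in M2 and RM2. It rose with M1 polarization, with a log2 fold change of 1.06 in M1 against M0 (1.00 to 1.12) and 0.65 in RM1 against RM0, and a shared effect of 0.86 (edgeR adjusted p = 0.000713).

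Tyrobp, the adaptor of Clec5a, had 9454 and 10182 counts in M0 and RM0, 9032 and 7914 in M1 and RM1, and 8375 and 7915 in M2 and RM2. Its shared M1 effect of 0.12 did not pass (edgeR adjusted p = 0.543), and within a library Fcer1g stood at 0.377 counts per Tyrobp count in M0 and 0.612 in M1. Hcst, the other adaptor of Clec5a, had 75 to 128 counts and a shared M1 effect of 0.11. Syk had 4493 to 5847 counts, with a shared M1 effect of 0.20 (edgeR adjusted p = 0.208). Card9, which links Syk to NF-κB, had 968 and 1021 counts in M0 and RM0, 533 and 580 in M1 and RM1, and 1028 and 1077 in M2 and RM2. Card9 fell with M1 polarization by 0.51 on the log2 scale (edgeR adjusted p = 0.0061). Nfatc2, a calcium-regulated transcription factor, fell by 0.93 (edgeR adjusted p = 0.000541).

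**Figure D4:**
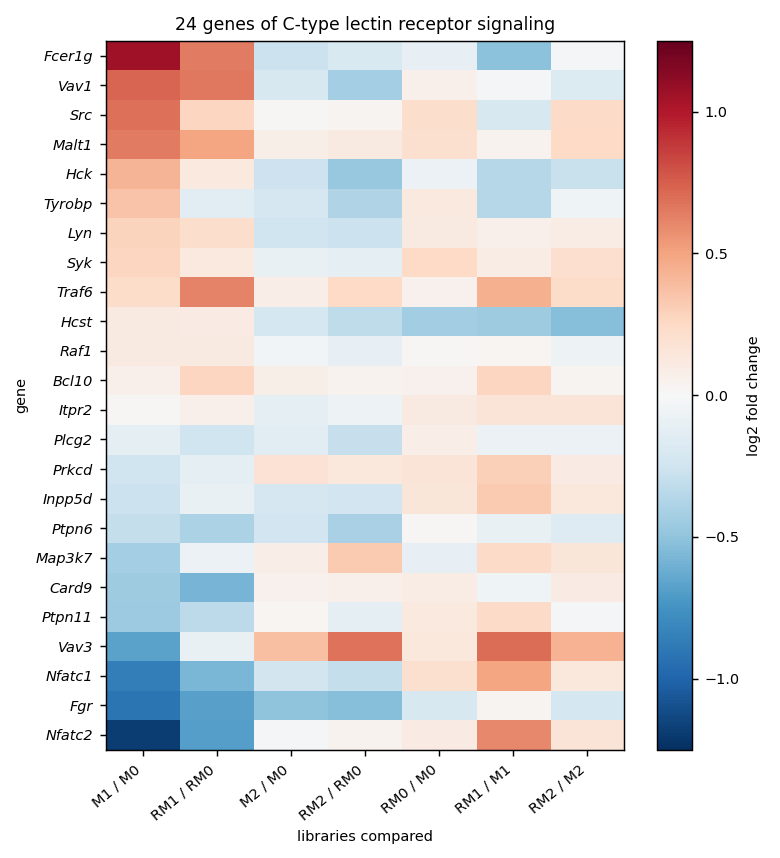
Log2 fold change (color scale) of 24 genes of C-type lectin receptor signaling (y axis) in 7 comparisons of single libraries (x axis), ordered by M1 against M0. Fcer1g stands at the top at 1.06 in M1 against M0 and Nfatc2 at the bottom at -1.19, and no gene reaches 2-fold in the other 6 comparisons.

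Other receptors of these families were measured beside them. Of 23 genes listed as other scavenger receptors, Cd47 among them, 12 had at least 10 counts in the M1 and M0 pair. In M1 against M0, 3 (Cd36, Cd47 and Cxcl16) were at least 2-fold higher and 1 lower, beside 9.37% and 13.3% of all genes. Cd36, a receptor for oxidized LDL and fatty acids, was at 1.35 in M1 against M0 and 1.21 in RM1 against RM0 on the log2 scale. Cd47, a surface signal that restrains uptake by macrophages and is itself no scavenger receptor, was at 1.85 and 1.49. Cd36 was also at 1.16 in RM2 against RM0. In the edgeR test 4 of the 12 (Cd47 among them) rose and 1 fell with M1 polarization, beside 23.3% and 24.3% of all genes. For M2 polarization 0 passed with edgeR (2 at an unadjusted p under 0.05) and 1 with DESeq2, and for irradiation 0 passed with edgeR (3 unadjusted) and 2 with DESeq2. The unadjusted counts stand beside 1173 (M2 polarization) and 1707 (irradiation) of all 11574 genes.

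Of 35 other C-type lectin genes, 15 had at least 10 counts in the M1 and M0 pair, and 3 were higher and 3 lower by 2-fold in M1 against M0, beside 9.37% and 13.3% of all genes. Clec10a, a galactose-binding lectin, had 42 and 51 counts in M0 and RM0, 7 and 10 in M1 and RM1, and 101 and 128 in M2 and RM2. It fell by 2.12 on the log2 scale with M1 polarization (edgeR adjusted p = 0.000751), while its M2 effect of 1.27 did not pass (adjusted p = 0.0884). In RM1 against M1, 2 of 15 were higher and 5 lower, beside 3.08% and 2.25% of all genes. Among the lower was Clec12a, an inhibitory receptor for uric acid crystals, at -1.10 with 473 counts in M1 and 248 in RM1. The other lower genes had few counts, with Mrc1 at 50 in M1 and 26 in RM1 and Cd69 at 47 and 10. Klrk1 had 23 and 1 and Clec11a 10 and 4 (log2 interval -3.62 to 0.3). Both reached the minimum of 10 counts in M1 only. For the shared irradiation effect, 2 rose (Thbd at 1.68 and Cd93 at 1.07, edgeR adjusted p = 0.0475 and 0.0129), both proteins with a lectin-like domain. The Thbd differences behind this value were unequal, at 1.08 in RM0 against M0, 3.51 in RM1 against M1 and 1.26 in RM2 against M2, and Thbd was at -3.15 in M1 against M0. With DESeq2, 1 of the list passed for irradiation. For M2 polarization 0 passed with edgeR or DESeq2, with 4 at an unadjusted edgeR p under 0.05, beside 1173 of all 11574 genes.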

How the data were processed

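RNA-seq of RAW264.7 cells in 6 conditions, with 1 library per condition, was analysed from raw counts that the authors deposited for 24062 RefSeq genes on mm10. The submitters' processing notes name Trimmomatic 0.36, HISAT2 2.2.1 and HTSeq 0.11.3, and the methods name edgeR. Whether reads were counted by strand is not given in the sources used here. No stretch of 100 bases in the GENCODE M21 transcripts of the 10 genes is shared with another gene. Copies that differ within each such stretch were not searched.

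Counts were scaled by TMM in edgeR 4.0.16 (R 4.3.3) over the genes that reached 10 counts in 3 or more libraries. Fold changes used a prior count of 2, and a gene was called where a pair of libraries differed by 2-fold or more and the larger count reached 10. These calls describe libraries and have no p-value. Intervals at 95% (exact Clopper-Pearson for fold changes and ratios, exact Poisson for levels) and the floor of 3 counts cover counting error only.

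Shared effects came from a quasi-likelihood fit in edgeR with terms for polarization and irradiation, with Benjamini-Hochberg adjustment over 11574 genes and 2 residual degrees of freedom. It assumes the same effect at each level of the other factor. The fit was tested on simulated data for the M1 polarization effect only, with 200 of 11574 genes changed and an assumed coefficient of variation of 0.1. The data hold many more M1 differences than that, and effects of M2 polarization and irradiation were not simulated. The receptors, the gene lists (C-type lectin signaling, other C-type lectins, other scavenger receptors, transcription factors, polarization genes and cell type markers) and the motifs were chosen with earlier results of these data known. Of the lists, the text names genes called at 2-fold whose larger count reached 50, at most the 5 largest per list and comparison, and the receptors' adaptors and kinase. For Clec10a, Mrc1, Dcn, Lyz2, Thbd and Cd93, tests or counts beyond this rule were added after their values were seen. Stat6, Cd69, Klrk1 and Clec11a are also named beyond this rule, and Gabarapl1, which is on no list, is named as a neighbor of receptor genes. Promoters came from RefSeq's table for GRCm38.p6, which matched 7 of the 10 genes. Clec4n, Msr1 and Scarb1 had no match.

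Alternatives were DESeq2 1.42.0 size factors or its Wald test, library totals, other prior counts, filters and thresholds, models with 1 factor, and states left out. Exosome, protein and knockdown measurements were not analysed here, and a few genes and motifs of the lists are not reported here.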

Additional observations from a re-analysis of the deposited data

Results flagged for a closer look

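Olr1, the gene of the oxidized LDL receptor LOX-1, differed in opposite directions between irradiated and non-irradiated libraries of the M1 and M2 states. Its log2 fold change was 0.99 in RM2 against M2, from 35 to 70 counts, and -0.36 in RM1 against M1, from 155 to 136 counts. Each state is 1 pair of libraries, and the difference between the states was not tested.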

How the results depend on the processing

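With 1 library per condition, every fold change lacks a replicate check, and counts under about 100 for Clec4n and Olr1 limit their precision. The same holds for Stab1, with 66 counts in M1 and 52 in RM1. Of 65 recomputed counts of receptors 55 remained within 1.5 times, and no called fold change or shared effect past the threshold changed sign. At a 4-fold threshold 1 receptor was called in M1 against M0, 1 in RM1 against RM0, 0 in M2 against M0 and 0 in RM2 against RM0. With a minimum of 50 counts 0 were called in M2 against M0, and with a prior count of 0.25, 1 was called in RM2 against M2. Without the libraries M1 and RM1, 1 receptor (Clec7a) passed the test of a shared irradiation effect and 2 (Clec7a and Olr1) passed for M2 polarization. In that setting 525 and 1330 of all 11574 genes passed for irradiation and M2 polarization, against 55 and 22 with all libraries. For M2 polarization 0 passed with library totals and 0 in the model with polarization only. Scaling by library totals moved the median of all genes to -0.46 in M1 against M0, -0.25 in RM1 against RM0 and 0.13 in RM1 against M1, and moved 25 of 63 fold changes of receptors by more than their counting interval. It also raised the receptors called from 4 to 5 in M1 against M0 (adding Stab1) and from 4 to 5 in RM1 against RM0 (adding Clec5a). The 6 receptors past the threshold for M1 polarization stayed past it in each alternative that tested them, with adjusted p up to 0.00958 for Msr1. Clec4n was not tested with a minimum of 50 counts. Other causes of these changes were not tested. Replicate numbers could not serve as a block because each group holds 1 library. The shared irradiation effect compared libraries within each state.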

Other observations

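Transcription factors known to act on genes of these families were measured in the same libraries. Of 25 listed, 24 had at least 10 counts, and 3 were at least 2-fold higher and 2 lower in M1 against M0, beside 9.37% and 13.3% of all genes measured. Irf1, an interferon-induced factor, had 419 counts in M0, 8628 in M1, 404 in RM0 and 1710 in RM1. On the log2 scale it stood 4.78 above M0 in M1 and 2.31 above RM0 in RM1, while RM1 against M1 was at -2.51. Irf8, a factor of macrophage identity, was at 2.48 in M1 against M0 and -1.77 in RM1 against M1. In the edgeR test 6 of the 24 rose and 7 fell with M1 polarization, shares near the 23.3% and 24.3% of all genes. For irradiation 0 passed with edgeR and 1 with DESeq2. At an unadjusted edgeR p under 0.05 there were 5, beside 1707 of all 11574 genes. Stat6, the factor activated by IL-4, had a shared M2 effect of -0.12 that did not pass the edgeR test (adjusted p = 0.698). Of 8 measured polarization genes, 6 were at least 2-fold higher in both M1 against M0 and RM1 against RM0, beside 4.71% of all genes. These 6 include Mrc1, which is often used as an M2 marker. With IL-4, 9 of the 13 genes of this list were measured. Of these, 1 (Arg1, higher) differed by 2-fold in M2 against M0 and in RM2 against RM0, beside 1.44% and 2.61% of all genes. The median log2 fold change of the 9 was -0.2 and -0.48 in these pairs.

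The genes whose centered log2 CPM profiles over the 6 libraries lay nearest to a receptor, among 10190 genes, are given as a description. For Clec4e they were Tmsb4x, Abcc5 and Ggh at distances of 0.14, 0.15 and 0.15 on the log2 scale. For Clec5a they were Ubox5, P2rx3 and 3110082I17Rik at 0.15, 0.17 and 0.18. For Olr1 they were Sema3c, Pgf and Gstt4 at 0.56, 0.78 and 0.86, and for Clec4n Id1, Anxa6 and Mov10 at 0.42, 0.49 and 0.50. For Stab1 the nearest was Exosc5 (0.23). For the less variable receptors the nearest were Ttc17 for Clec4d (0.06), Rassf4 for Msr1 (0.05) and Ppme1 for Scarb1 (0.04).

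The annotated genes next to the receptor genes on chromosome 6 included several listed at 0. Clec12b and Clec9a near Clec7a and Olr1 had 0 counts in all 6 libraries, and so did Clec4b2 near Clec4n. Gabarapl1, an autophagy gene within 100 kb of Clec7a and Olr1, had 2010 and 1901 counts in M0 and RM0, 3689 and 3077 in M1 and RM1, and 1978 and 1856 in M2 and RM2. M1 minus M0 was 1.30 and RM1 minus RM0 0.93 on the log2 scale.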
